A study of Homo sapiens with 24 samples.

Results

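The genes described here encode chaperones of the cytosol and the mitochondrion and their partners. The exception is SERPINH1, a collagen chaperone of the endoplasmic reticulum. The list of 34 genes was set by name, and each gene was read from 1 probe set, the one with the highest mean over 24 arrays among the probe sets that carry its symbol alone. Of the 34 genes 30 could be measured in this way, out of 19775 genes in the series. HSPA8, TCP1 and PFDN6 were matched only by probe sets with several symbols, and AHSA1 could not be matched by name, so these 4 genes were not analysed here. The 30 measured genes comprise 7 of 8 listed for the HSP70 machine, 7 of 8 for the HSP90 machine, 4 of 4 mitochondrial chaperones, 7 of 8 subunits of the TRiC chaperonin, 3 of 4 prefoldin subunits, and HSPB1 and SERPINH1.

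All samples are KARPAS-422, an established human line of diffuse large B-cell lymphoma (DLBCL), and every group carries the EZH2 genotype Y641N by its label. EZH2 is the methyltransferase of Polycomb repressive complex PRC2, which silences genes by methylating histone H3. Cells received DMSO or an EZH2 inhibitor at 5 uM, named EZH2i in the labels, for 1, 2, 3 or 6 days. Each of the 8 groups holds 3 arrays (Affymetrix U133 Plus 2), and the study calls them biological triplicates of this single line. Nothing states that they were separate cultures, so the p-values measure the spread between these samples. The deposited values were taken to be log2 from their range, since no source here names the base. On that scale a difference of 1 is a doubling. Differences are EZH2i minus DMSO of the same day, with the standard error (SE) of a limma fit over all arrays over n = 3 arrays in each group, except where days are compared within an arm. A gene was called, and is said to have risen or fallen, when its limma p was under 0.05 after Benjamini-Hochberg adjustment across the 19775 genes. The arrays measure bulk RNA, so fewer cells of a kind and less RNA per cell cannot be told apart.

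Chaperones help newly made and stress-damaged proteins reach and keep their folded state. HSP70 proteins bind exposed hydrophobic stretches in cycles of ATP hydrolysis set by J-domain proteins and nucleotide exchange factors, and hand many clients to HSP90, which completes the maturation of kinases and steroid receptors. TRiC is a double-ring chamber that folds actin and tubulin, to which prefoldin delivers its clients, and HSP60 with HSP10 is its counterpart in the mitochondrial matrix. Many of these genes carry heat shock elements, the binding sites of the transcription factor HSF1, while others are known to follow cell growth and MYC, which binds E-boxes.

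The sequences of the heat shock element are shown first, because they mark which of the genes hold an exact match to the classical heat shock site near a start. The search allowed no mismatch, so the lack of a match does not show that a gene lacks such a site. Promoter windows of RefSeq (GRCh38.p14), running from 250 bases before to 50 bases after a transcription start, were matched for 25 of the 30 measured genes, with 36 windows in all. A 3-unit heat shock element was searched as the units GAA, TTC and GAA, or TTC, GAA and TTC, each parted from the next by 2 bases of any kind, which covers both strands. It occurred in 6 of the 36 windows, 1 for each of 6 genes, against 0.49% of all 35116 windows. In the lines below, each in the direction of its gene, the capitals mark the 3-unit matches, and matches that overlap are run together.

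CHORDC1: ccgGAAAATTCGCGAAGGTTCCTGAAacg
DNAJA1: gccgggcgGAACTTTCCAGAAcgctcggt
HSP90AA1: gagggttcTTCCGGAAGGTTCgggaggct
HSP90AB1, first match: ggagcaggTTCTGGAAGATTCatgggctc
HSP90AB1, second match: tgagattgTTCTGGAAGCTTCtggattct
HSPD1: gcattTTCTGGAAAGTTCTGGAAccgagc
SERPINH1: ttccaactTTCCAGAAGTTTCtcgggacg

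The stretches lie at chr11:90223084-90223112 (minus strand, CHORDC1), chr9:33025268-33025296 (plus strand, DNAJA1), chr14:102087112-102087140 (minus strand, HSP90AA1), chr6:44247770-44247798 and chr6:44247823-44247851 (plus strand, HSP90AB1), chr2:197500062-197500090 (minus strand, HSPD1) and chr11:75562169-75562197 (plus strand, SERPINH1). The match of HSP90AA1 begins at position -88 from the start of its window, and those of HSP90AB1 at -165 and -112. For HSP90AA1, HSP90AB1 and HSPD1 the start in question is a second or later start listed for the gene. A shorter 2-unit form (GAANNTTC or TTCNNGAA, contained in the longer form) occurred in 13 of the 36 windows against 13.5% of all windows. The E-box CACGTG, which reads the same on both strands, occurred in 4 of the 36 windows against 7.26% of all. These windows belong to FKBP5, HSPA9, HSPD1 and HSPE1.

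HSPD1 and HSPE1, the genes of HSP60 and HSP10, are transcribed away from each other, with 104 bases between their outermost starts. The stretch is shown because a single E-box, in capitals, serves as the match of both genes. It lies at chr2:197500275-197500378 and is printed on the strand of HSPE1, which begins just after its last base.

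HSPD1 to HSPE1: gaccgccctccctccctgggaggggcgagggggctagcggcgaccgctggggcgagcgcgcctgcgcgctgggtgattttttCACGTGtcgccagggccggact

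Matches describe letters in these windows, not binding. At day 6 the 6 genes with a 3-unit match had a median difference of -0.35, with 5 called lower and 0 higher. The 19 genes with windows but without an exact match had a median of -0.57, with 15 lower and 2 higher. These counts stand against 26.9% of all genes called lower and 18.5% higher. Among genes with a mean of at least 9, 42.6% were lower. The difference between genes with and without a match was not tested.

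The targeted enzyme's own transcript was read first. EZH2 differed between the arms by 0.05 ± 0.12 at day 1, -0.09 ± 0.12 at day 2 and -0.29 ± 0.12 at day 3 (limma adjusted p = 1, 0.76 and 0.091), and fell by 0.64 ± 0.12 at day 6 (limma adjusted p = 8.9e-05). The inhibitor acts on the enzyme, so this transcript does not test the labels. Of 10 B cell markers 9 were measured, with MS4A1 highest at a mean of 12.63 and CR2 at 2.88. T and NK cell markers stayed below 6 for 7 of 10 genes, but CD3G, a T cell receptor subunit, had a mean of 10.95. Myeloid markers were below 6 for 9 of 9 genes and stromal, endothelial and epithelial markers for 9 of 10. Their summed log2 levels ranged over DMSO and EZH2i arrays from 83.3 to 86.2 and 83.1 to 88 (B cell), 51.7 to 53.2 and 50.4 to 52.4 (T and NK cell), 35.9 to 37.2 and 35.6 to 38.3 (myeloid) and 46.8 to 48.2 and 45.2 to 47.7 (stromal, endothelial and epithelial). LYZ, a myeloid marker that encodes lysozyme, rose by 2.52 ± 0.26 at day 6. It was the 1 myeloid marker of 9 called higher at that day. Of the others 4 were called lower, and the median difference of the 9 was -0.15. Over all genes 18.5% were called higher and 26.9% lower at day 6.

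Arrays numbered 2 and 3 of DMSO day 3 stood apart in genes of the amino acid response, the program that the factor ATF4 drives when amino acids run short. The median change of 22 such genes from DMSO day 1 was -0.02, 1.03 and 0.71 on the DMSO day 3 arrays numbered 1, 2 and 3, and between -0.15 and -0.07 on the 3 EZH2i arrays of that day. The counts of each list at day 3, and the calls that changed, are therefore also given with these 2 DMSO arrays left out.

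Calls among the chaperone genes built up over the days. At day 1 limma called 0 of 30 higher and 0 lower, against 0.475% of all genes called higher and 0.0101% lower. At an unadjusted p under 0.05, 1 of 30 was higher and 0 lower, against 3.79% and 2.27% of all genes. At day 2 BAG3 alone was called, higher, against 3.57% of all genes called higher and 0.824% lower. With replicates blocked HSPA14 (-0.31) and HSPA9 (-0.18) were called lower as well (limma adjusted p = 0.012 and 0.046). With the block within each day HSPA14 and HSPA4 (-0.25) were called lower as well (limma adjusted p = 0.0055 and 0.026). At day 3 BAG3 was again higher and 12 of 30 genes were lower, against 8.64% higher and 7.65% lower over all genes. By day 6 limma called 25 of 30 lower and 2 higher (BAG3 and PFDN5), against 26.9% lower and 18.5% higher over all genes. Most of these probe sets are bright, and among the 3726 genes with a mean of at least 9 a larger share was lower, 17.6% at day 3 and 42.6% at day 6. Of the 26 chaperone genes in that range 12 were lower at day 3 and 25 at day 6.

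The median difference of the 30 genes was -0.02 at day 1, -0.08 at day 2, -0.21 at day 3 and -0.55 at day 6. The median over all genes at day 6 was -0.11. With the median gene of each array set to no change, 21 chaperone genes were called lower at day 6 and their median difference was -0.46. The 4 genes no longer called were HSP90AA1, CHORDC1, FKBP5 and PFDN4, with differences of -0.07, -0.16, -0.10 and -0.19 (limma adjusted p = 0.45, 0.16, 0.30 and 0.17). At day 3 the count of 12 lower genes was 8, 7 and 6 without DMSO replicate 1, EZH2i replicate 2 and EZH2i replicate 3 of that day, and 8 with the DMSO arrays numbered 2 and 3 left out together. In that fit the lone DMSO array of day 3 is assumed to vary like the other groups, the median difference was -0.27, and BAG3 was higher by 1.00 (limma adjusted p = 0.0028). Over all genes that fit called 5.32% higher and 3.7% lower. Besides CCT4 and CCT8, the calls lost there were HSP90AB1 (-0.30), HSPE1 (-0.26) and PFDN2 (-0.27), with limma adjusted p = 0.071, 0.12 and 0.16, while HSPD1 was gained (-0.37, limma adjusted p = 0.048). The other 7 lower genes were HSPA14 (-0.71), HSPA4 (-0.58), HSPA9 (-0.45), FKBP4 (-0.42), TRAP1 (-0.42), CCT5 (-0.35) and CCT7 (-0.33). The main count of 12 became 17 with replicates blocked.

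The single arrays give the same order of days. At day 1 the 3 EZH2i arrays lay all below the 3 DMSO arrays for 0 of 30 genes and all above them for 1 (BAG3), against 5.33% and 5.35% of all genes. At day 2 they lay below for 10 and above for 1, against 13.4% and 9.34%. At day 3 these counts were 15 and 1, against 17.5% and 13.3%, and at day 6 they were 25 and 2, against 32.3% and 19.8%. The change from day 1 to day 6 was also tested as a difference between the effects of EZH2i at these days. It was called lower for 21 of 30 genes and higher for 1 (PFDN5), against 14.4% and 12.3% of all genes. TRAP1 led, with a difference of -1.45 ± 0.11 (limma adjusted p = 2.6e-09).

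**Figure D1:**
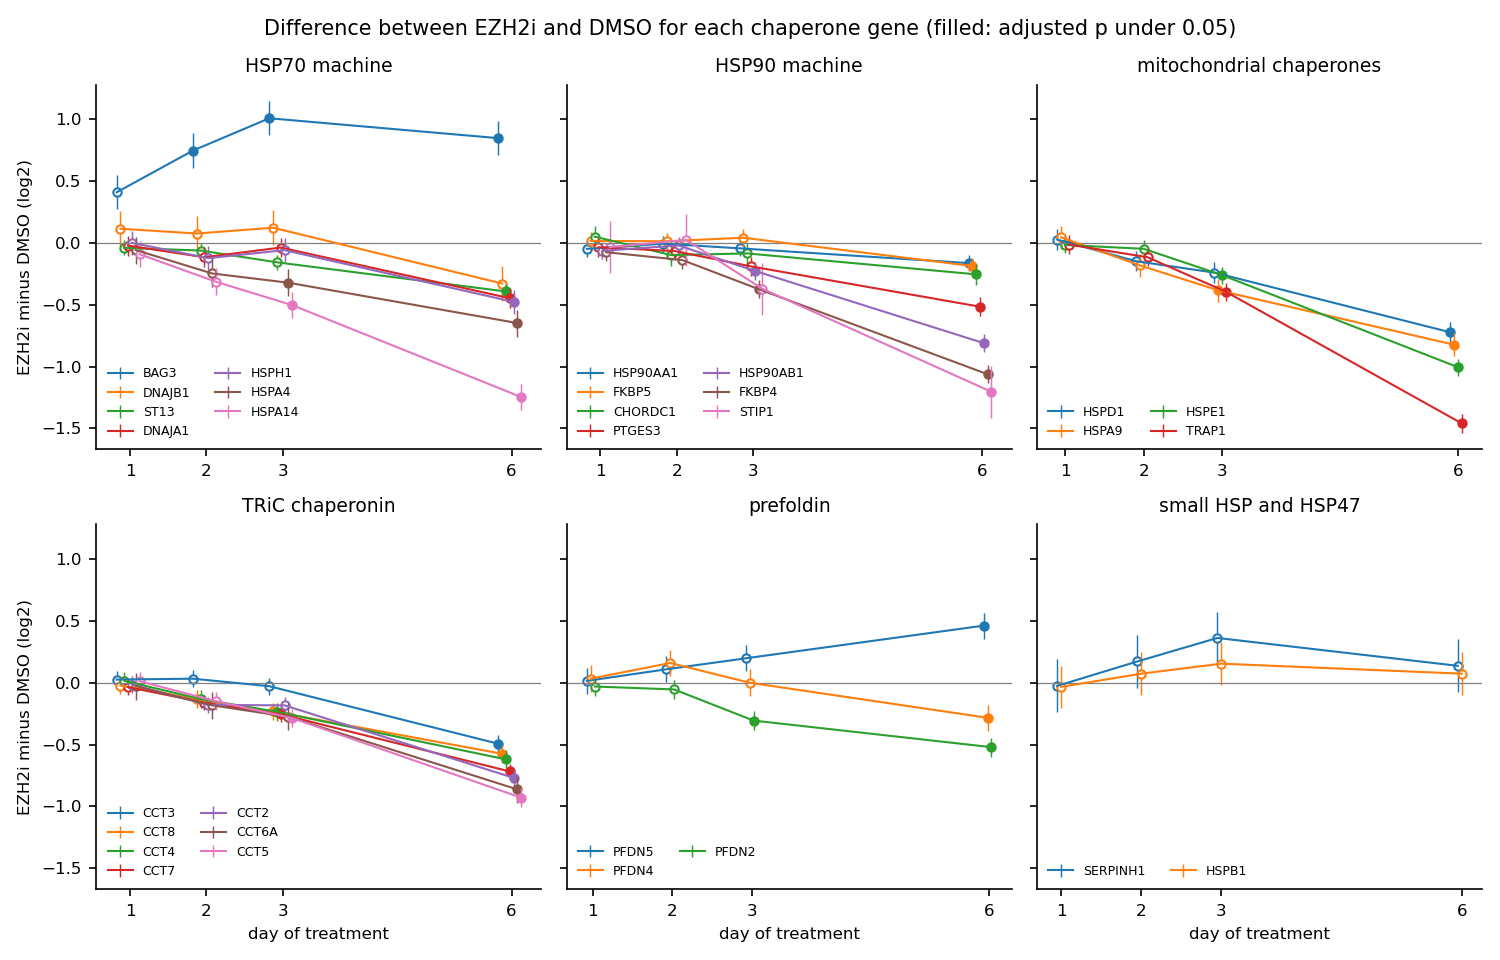
Difference between EZH2i and DMSO (log2, vertical axes) against the day of treatment (horizontal axes) for 30 chaperone genes in 6 groups by role. Points are limma estimates, bars their standard errors, n = 3 arrays per group, and filled points have an adjusted p under 0.05. At day 1 no point is filled, and at day 6 the filled points lie below 0 for 25 genes and above 0 for BAG3 and PFDN5.

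Within the DMSO arm the differences of the 30 genes from day 1 ranged from -0.21 to 0.32 at day 2, from -0.43 to 0.37 at day 3 and from -0.31 to 0.33 at day 6, with 19, 25 and 21 genes below 0. Against day 1 limma called 0 of 30 genes at day 2, at day 3 and at day 6, while over all genes 0.0152%, 0.379% and 0.238% were called higher and 0.0101%, 0.0759% and 0.0506% lower at these days. At an unadjusted p under 0.05, 0 of the 30 were lower and 1 higher at day 2, against 1.9% and 2.8% of all genes. At day 3 and at day 6 these counts were 2 lower and 1 higher, against 5.16% and 4.04% at day 3 and 4.64% and 3.86% at day 6. HSP90AA1 differed by -0.23 between days 6 and 1 of the DMSO arm (limma adjusted p = 0.19, and 0.034 with replicates blocked). Within the EZH2i arm BAG3 was called at day 2, where 0.764% of all genes were higher and 0.167% lower. At day 3 15 chaperone genes were lower and 1 higher than at day 1 of the same arm, against 8.75% and 7.52% of all genes. At day 6 26 were lower and 2 higher, against 24% and 16.9%. On single arrays the median change of the 30 genes from DMSO day 1 was -0.60, -0.61 and -0.65 for EZH2i at day 6 and -0.02, -0.01 and -0.05 for DMSO at day 6. At day 3 it was -0.21, -0.28 and -0.31 for EZH2i and 0.00, -0.11 and -0.08 for DMSO, so that the arms did not overlap at either day.

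**Figure D2:**
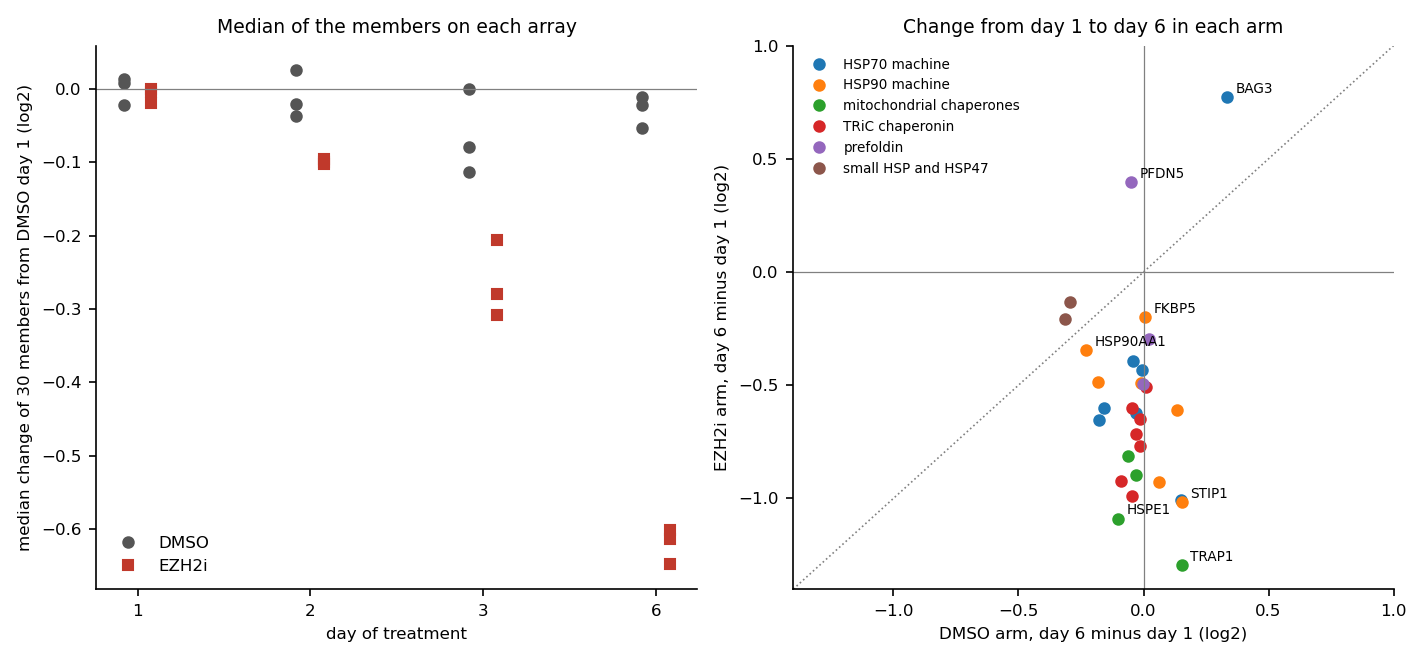
Left: median change of 30 chaperone genes from the DMSO day 1 mean (log2) on each of 24 arrays by day, with days evenly spaced. Right: for each gene the difference of day 6 from day 1 in the EZH2i arm (vertical, log2) against that in the DMSO arm (horizontal, log2), with the line of equality dotted. DMSO arrays stay between -0.11 and 0.03, EZH2i arrays reach -0.65 at day 6, and most genes lie well below the line.

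HSPA14, an HSP70-type protein that works at the ribosome, showed the largest difference of the HSP70 machine. It stood at 10.96, 10.87 and 10.76 on the 3 DMSO arrays of day 6 and at 9.77, 9.57 and 9.51 on the 3 EZH2i arrays. All EZH2i arrays lie below all DMSO arrays by about a full log2 unit. HSPA14 fell by 1.25 ± 0.11 at day 6 (limma adjusted p = 3.1e-09) and by 0.50 ± 0.11 at day 3 (limma adjusted p = 0.0019). At day 2 the difference was -0.31 ± 0.11 (limma adjusted p = 0.11, and 0.012 with replicates blocked). Its other probe sets gave -0.30 and -0.79 at day 6.

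HSPA4, a nucleotide exchange factor of HSP70, was lower as well. It read 11.30, 11.10 and 11.05 with DMSO and 10.61, 10.45 and 10.45 with EZH2i at day 6, without overlap. HSPA4 fell by 0.65 ± 0.11 at day 6 (limma adjusted p = 4.1e-05). At day 3 the arms overlapped, and the fall of 0.32 ± 0.11 (limma adjusted p = 0.047) was not called without any 1 of 15 arrays. Of its other probe sets, a bright one gave -0.83 and a dimmer one -0.79 at day 6, while one with a mean of 6.39 gave 0.72.

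HSPH1, the HSP110 exchange factor, fell by 0.48 ± 0.10 at day 6, DNAJA1, a J-domain partner of HSP70, by 0.45 ± 0.08, and ST13, which links HSP70 to HSP90, by 0.39 ± 0.06. None of these 3 was called at day 3, where they differed by -0.06, -0.04 and -0.16. DNAJA1 and ST13 are uncertain. The other probe set of DNAJA1, with a mean of 10.73, gave -0.04 at day 6 and 0.21 at day 3. The other probe sets of ST13 gave 0.39 and 0.15 at day 6, and the mean of its probe sets differed by 0.05 (limma adjusted p = 0.53). DNAJB1, the stress-inducible J-domain protein, had the smallest difference of this group at day 6. Its arrays read 8.69, 9.09 and 8.93 with DMSO and 8.28, 8.84 and 8.60 with EZH2i, and the arms overlapped. The difference of DNAJB1 was -0.33 ± 0.14 (limma adjusted p = 0.068). It was called with replicates blocked within each day (limma adjusted p = 0.024) and with the mean of its probe sets (-0.45, limma adjusted p = 0.021).

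BAG3, a co-chaperone that exchanges nucleotide on HSP70 and directs clients to selective autophagy, went the other way. At day 3 it read 6.62, 6.43 and 6.77 with DMSO and 7.59, 7.43 and 7.83 with EZH2i. The lowest EZH2i array exceeds the highest DMSO array, as it did at every day, day 1 included, where the values were 6.11, 6.20 and 6.39 against 6.4, 6.78 and 6.75. BAG3 rose by 0.75 ± 0.14 at day 2 (limma adjusted p = 0.0017), 1.01 ± 0.14 at day 3 (limma adjusted p = 2e-05) and 0.85 ± 0.14 at day 6 (limma adjusted p = 3e-05). The day 1 difference was 0.41 ± 0.14 (limma adjusted p = 0.37, and 0.0072 with replicates blocked within each day). Its effect at day 6 exceeded that at day 1 by 0.44 ± 0.20 (not called, limma adjusted p = 0.11, and 0.028 with replicates blocked). Only 1 single-symbol probe set reads BAG3, and the gene has no exact 3-unit match in its window.

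The cytosolic HSP90 machine fell in all 7 measured genes at day 6, but on the probe sets used the size differed widely among them. Over all genes the share called lower was 26.9%, and 42.6% among those with a mean of at least 9. STIP1 (HOP), the adaptor that passes clients from HSP70 to HSP90, read 9.55, 10.20 and 10.16 with DMSO and 8.47, 9.0 and 8.83 with EZH2i at day 6. The arms do not overlap, although replicate 1 is the lowest array in both. STIP1 fell by 1.20 ± 0.21 (limma adjusted p = 5.6e-05), and a further probe set gave -1.45. At day 3 the difference was -0.37 ± 0.21 (limma adjusted p = 0.26, and 0.034 with replicates blocked).

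FKBP4 (FKBP52), a prolyl isomerase that HSP90 carries into steroid receptor complexes, had little spread. Its arrays read 9.23, 9.37 and 9.31 with DMSO and 8.21, 8.29 and 8.22 with EZH2i at day 6. FKBP4 fell by 1.06 ± 0.07 at day 6 (limma adjusted p = 8.3e-11) and by 0.37 ± 0.07 at day 3 (limma adjusted p = 0.00078). Of the genes called at day 3, FKBP4 and BAG3 are those that remained so in every alternative tried at the threshold of 0.05. FKBP5 (FKBP51), its glucocorticoid-inducible relative, fell by 0.19 ± 0.07 at day 6 (limma adjusted p = 0.031). The call of FKBP5 was lost without any 1 of 4 arrays. It was also lost with array medians subtracted and with quantile normalization again (limma adjusted p = 0.057 and 0.11). Its other probe sets, with means of 8.91 and 5.96, gave -0.36 and -0.60.

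Of the HSP90 isoforms, HSP90AB1 showed the larger fall on the probe sets used. HSP90AB1, the constitutive isoform, read 12.44, 12.47 and 12.51 with DMSO and 11.59, 11.65 and 11.75 with EZH2i at day 6. It fell by 0.81 ± 0.07 at day 6 (limma adjusted p = 3.2e-09) and by 0.23 ± 0.07 at day 3 (limma adjusted p = 0.03). The day 3 call was lost without any 1 of 4 arrays and with the mean of probe sets (limma adjusted p = 0.17). HSP90AA1, the inducible isoform, read 13.62, 13.57 and 13.50 with DMSO and 13.44, 13.37 and 13.38 with EZH2i. Its arms do not overlap at day 6, but they lie close together, and the fall of 0.16 ± 0.07 (limma adjusted p = 0.047) was lost with array medians subtracted (limma adjusted p = 0.084) and without any 1 of 15 arrays. The probe set used for HSP90AA1 is the brightest of 4, with a mean of 13.65. The others gave -0.34, -0.25 and -0.68 at day 6, with means of 13.65, 13.59 and 12.87. For HSP90AB1 the probe set used had a mean of 12.23, and the others gave -0.92 and -0.97. The highest value on any array was 14.33, and whether brightness limits these differences was not tested. The difference between the isoforms was not tested. Both hold the 3-unit element printed above.

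PTGES3 (p23), which stabilises the closed form of HSP90, fell by 0.52 ± 0.08 at day 6 (limma adjusted p = 7.4e-06). CHORDC1, a zinc-binding HSP90 partner, fell by 0.25 ± 0.09 (limma adjusted p = 0.02). The call of CHORDC1 was lost without DMSO day 6 replicate 2 or EZH2i day 6 replicate 3. It was also lost with quantile normalization again (limma adjusted p = 0.085). The other probe set of CHORDC1, with a mean of 5.57, gave -1.06. At day 3 PTGES3 differed by -0.19 ± 0.08 (limma adjusted p = 0.097, and 0.013 with replicates blocked).

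**Figure D3:**
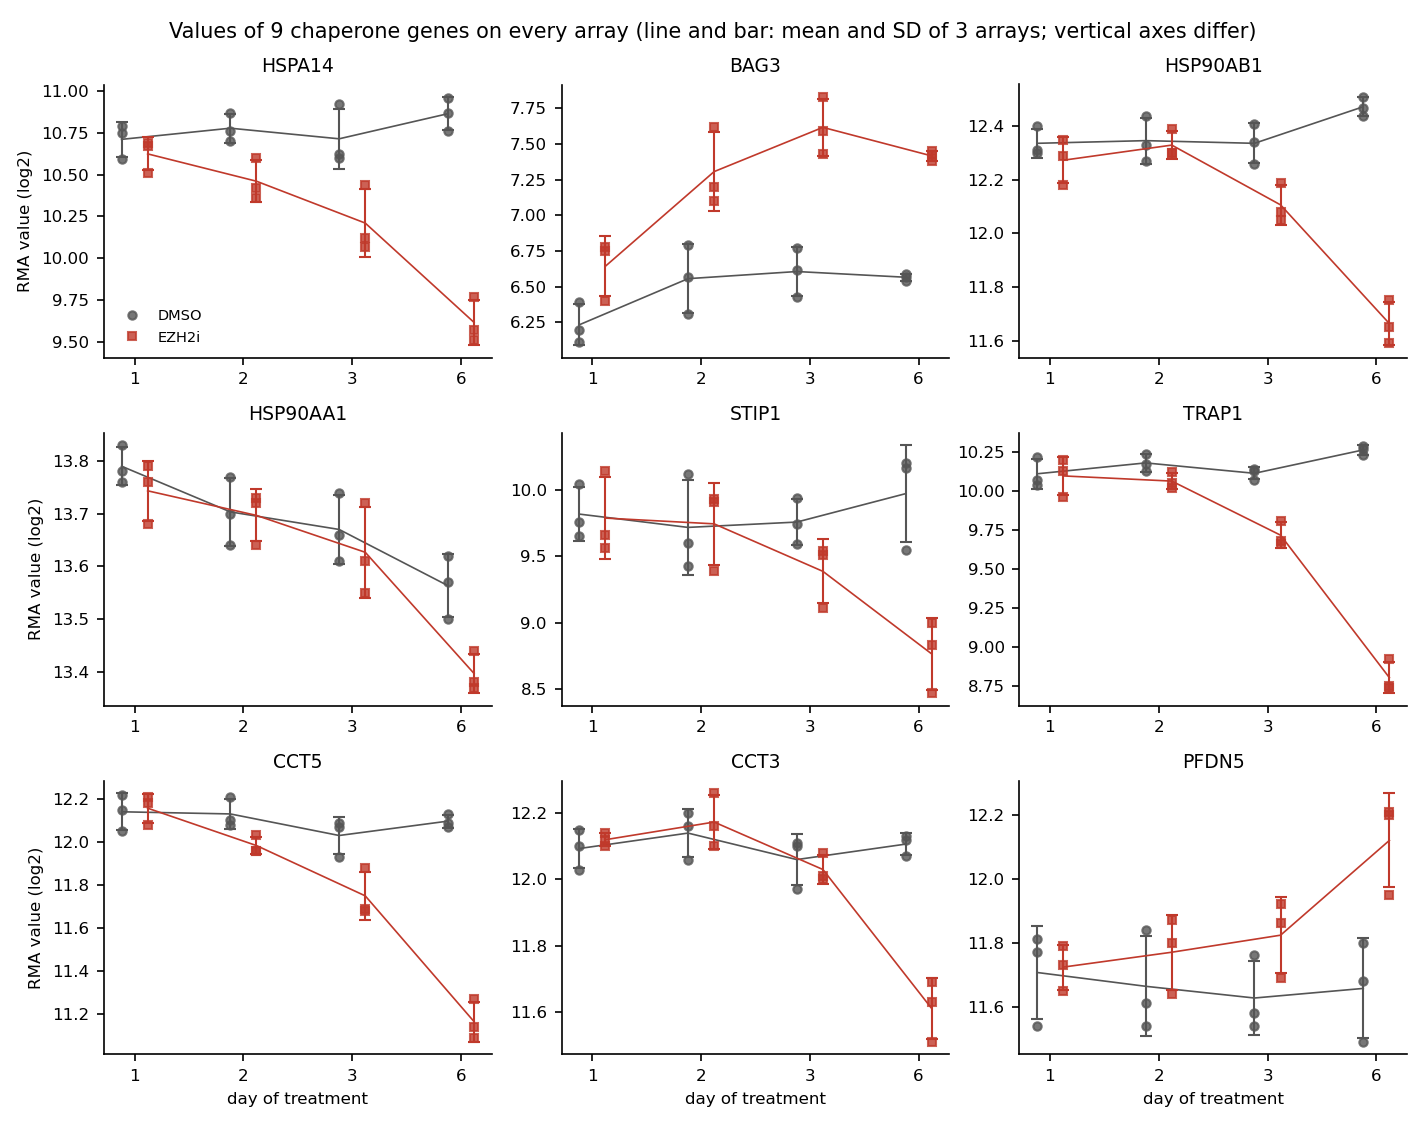
RMA values (log2, vertical axes, which differ between panels) of 9 chaperone genes on every array by day of treatment, with days evenly spaced. Grey circles are DMSO and red squares EZH2i arrays, and lines with bars give the mean and SD of 3 arrays. At day 6 the EZH2i arrays lie below the DMSO arrays in 7 panels and above them for BAG3 and PFDN5.

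The mitochondrial chaperones moved as a whole, with 4 of 4 lower at day 6 and a median difference of -0.91. Of all genes 26.9% were lower at that day, and of those with a mean of at least 9, 42.6%. TRAP1, the HSP90 of mitochondria, had the largest fall of all 30 genes. It read 10.23, 10.29 and 10.27 with DMSO and 8.92, 8.74 and 8.75 with EZH2i at day 6. The arms lie well apart, with an SD of 0.033 among the DMSO and 0.105 among the EZH2i arrays. TRAP1 fell by 1.46 ± 0.07 at day 6, or 2.75-fold (limma adjusted p = 1.5e-12), and by 0.40 ± 0.07 at day 3 (limma adjusted p = 0.00064). With the mean of both probe sets the day 3 difference was -0.09 and not called (limma adjusted p = 0.29). Its second probe set, with a mean of 2.76, gave 0.40 at day 6.

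HSPE1 (HSP10), the lid of the HSP60 chamber, read 11.96, 12.07 and 11.95 with DMSO and 10.97, 11.12 and 10.87 with EZH2i at day 6, again without overlap. It fell by 1.00 ± 0.07 (limma adjusted p = 8.2e-11), and by 0.26 ± 0.07 at day 3 (limma adjusted p = 0.0098). HSPA9 (mortalin), the HSP70 of the matrix and motor of protein import, read 11.79, 11.74 and 11.64 with DMSO and 10.98, 10.93 and 10.79 with EZH2i. HSPA9 fell by 0.82 ± 0.09 at day 6 (limma adjusted p = 1.4e-07) and by 0.38 ± 0.09 at day 3 (limma adjusted p = 0.0047). Its other 2 probe sets with a mean above 7 gave -0.84 and -0.87.

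HSPD1 (HSP60) had the smallest fall of the 4 genes. Its arrays read 13.56, 13.49 and 13.45 with DMSO and 12.93, 12.69 and 12.72 with EZH2i at day 6, without overlap. HSPD1 fell by 0.72 ± 0.08 (limma adjusted p = 2.5e-07). Its other probe sets gave -1.19 (mean 12.38), -0.40, -1.32 and -0.14, the last 3 with means below 6. At day 3 HSPD1 differed by -0.24 ± 0.08 (limma adjusted p = 0.053, and 0.0056 with replicates blocked).

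TRiC is built from related subunits in fixed places of each ring. All 7 measured subunits fell at day 6, by 0.49 to 0.93, with a median difference of -0.72. The shares called lower at day 6 were 26.9% of all genes and 42.6% of those with a mean of at least 9. On the probe sets used CCT5 changed most, from 12.13, 12.09 and 12.07 with DMSO to 11.27, 11.14 and 11.09 with EZH2i. CCT5 fell by 0.93 ± 0.07 (limma adjusted p = 1e-09). The order of the subunits depends on the probe set. Other bright probe sets gave -1.13 for CCT2 (mean 11.28) and -0.49 for CCT6A (mean 10.35) at day 6. Dimmer ones gave -0.58 for CCT4, -0.41 for CCT8 and -0.04 for CCT5, with means of 6.88, 4.94 and 5.76.

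CCT6A read 11.94, 11.86 and 11.86 with DMSO and 11.19, 10.98 and 10.90 with EZH2i at day 6, a fall of 0.86 ± 0.11 (limma adjusted p = 9.9e-07). CCT2 read 12.83, 12.79 and 12.83 against 12.16, 11.99 and 11.99, a fall of 0.77 ± 0.07 (limma adjusted p = 3.3e-09). In neither gene do the arms overlap. CCT7, CCT4 and CCT8 fell by 0.72 ± 0.06, 0.62 ± 0.07 and 0.57 ± 0.07.

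CCT3 had the smallest fall on the probe sets used. It read 12.07, 12.12 and 12.13 with DMSO and 11.69, 11.51 and 11.63 with EZH2i at day 6, and fell by 0.49 ± 0.07 (limma adjusted p = 3e-06). At day 3 CCT3 differed by -0.03 ± 0.07, with overlapping arms, whereas 4 subunits were called: CCT5 (-0.29), CCT7 (-0.25), CCT4 (-0.23) and CCT8 (-0.23). With the mean of its probe sets CCT5 differed by -0.03 at day 3 and was not called (limma adjusted p = 0.88). CCT6A (-0.28) and CCT2 (-0.18) were called with replicates blocked (limma adjusted p = 0.0027 and 0.027, against 0.094 and 0.067). With the DMSO arrays numbered 2 and 3 left out, the calls of CCT4 and CCT8 at day 3 were lost (limma adjusted p = 0.074 and 0.12) and their differences were -0.31 and -0.27.

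Prefoldin, the jellyfish-shaped complex that feeds TRiC, did not move in 1 direction. PFDN2 read 11.01, 11.23 and 11.13 with DMSO and 10.47, 10.70 and 10.64 with EZH2i at day 6. It fell by 0.52 ± 0.08 (limma adjusted p = 7.4e-06), and by 0.31 ± 0.08 at day 3 (limma adjusted p = 0.0071). PFDN4 read 10.47, 10.61 and 10.45 against 10.24, 10.21 and 10.24, a fall of 0.28 ± 0.11 (limma adjusted p = 0.036) that was lost without any 1 of 5 arrays of day 6. Its other probe sets, with means of 6.34 and 5.49, gave -0.07 and -0.01. The call was also lost with the mean of probe sets (-0.12, limma adjusted p = 0.2). The same held with array medians subtracted and with quantile normalization again (limma adjusted p = 0.051 and 0.089).

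PFDN5, first described as a binding partner of MYC, was higher. It read 11.49, 11.68 and 11.80 with DMSO and 11.95, 12.21 and 12.20 with EZH2i at day 6, and all EZH2i arrays exceed all DMSO arrays. PFDN5 rose by 0.46 ± 0.11 (limma adjusted p = 0.0011), and its other probe set gave 0.43. At day 3 it differed by 0.20 ± 0.11 (limma adjusted p = 0.23, and 0.028 with replicates blocked within each day). The probe set used is of the x type, whose probes may also match other transcripts, a class that holds 2 of the 30 probe sets used (PFDN5 and HSPA4).

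HSPB1 (HSP27), a small heat shock protein that holds unfolded clients, and SERPINH1 (HSP47), the collagen chaperone, were dim and were not called at any day. HSPB1 read 5.64, 6.12 and 6.08 with DMSO and 6.16, 5.93 and 5.98 with EZH2i at day 6, and the arms overlapped. The difference was 0.07 ± 0.17 (limma adjusted p = 0.75), and that of SERPINH1 0.14 ± 0.21 (limma adjusted p = 0.62). At day 3 SERPINH1 differed by 0.36 ± 0.21 (limma adjusted p = 0.29, and 0.034 with replicates blocked).

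More than 1 probe set with a single symbol was found for 22 genes. For 19 of them every probe set had the sign of the one used at day 6, and HSPA4, ST13 and TRAP1 were the exceptions. Among the other probe sets with a mean of at least 8, 21 in 16 genes, 15 gave a lower difference than the probe set used.

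**Figure D4:**
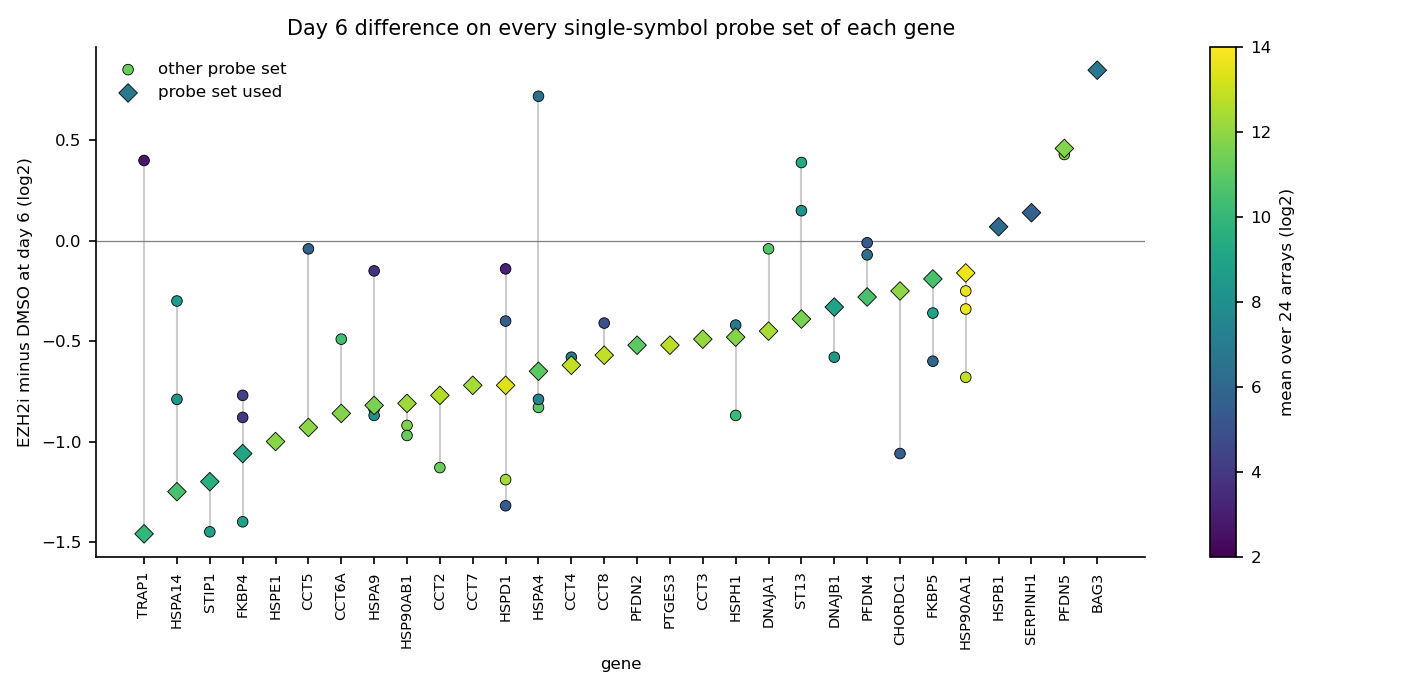
Difference between EZH2i and DMSO at day 6 (log2, vertical axis) on every single-symbol probe set of 30 chaperone genes (horizontal axis, ordered by the probe set used). Diamonds are the probe sets used, circles the others, and colour gives the mean over 24 arrays (log2). Opposite signs within a gene appear for TRAP1, HSPA4 and ST13.

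How far these changes extend through the folding system was read from lists of other genes, whose counts stand against 8.64% of all genes higher and 7.65% lower at day 3, and 18.5% and 26.9% at day 6. With the DMSO arrays numbered 2 and 3 left out, the shares at day 3 were 5.32% and 3.7%. Of 72 measured genes of other chaperones and co-chaperones, 4 were higher and 18 lower at day 3, and 6 higher and 38 lower at day 6, with a median difference of -0.25 at day 6 against -0.11 over all genes. Without the 2 DMSO arrays 1 was higher and 5 lower at day 3. At day 3 the named genes were CCT6B, a testis-type TRiC subunit (0.81 ± 0.19), HSPA4L, an HSP110-family gene (0.77 ± 0.23), GRPEL2, an exchange factor of HSPA9 (-0.72 ± 0.20), and LONP1, the protease of the mitochondrial matrix (-0.70 ± 0.08). Of these, HSPA4L (0.72) and GRPEL2 (-0.29) were not called without the 2 arrays (limma adjusted p = 0.19 and 0.54). At day 6 CCT6B rose by 1.46 ± 0.19 and DNAJB2, a J-domain protein, by 1.39 ± 0.19. BAG2, an exchange factor that inhibits the ubiquitin ligase CHIP, fell by 1.14 ± 0.08 and GRPEL1, the main exchange factor of HSPA9, by 1.08 ± 0.11. HSF1, the heat shock factor, differed by -0.06 ± 0.08 at day 3 and fell by 0.24 ± 0.08 at day 6 (limma adjusted p = 0.013), and was chosen after its values were seen.

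Of 17 chaperones and folding enzymes of the endoplasmic reticulum (ER), 1 was higher and 4 lower at day 3, and 2 higher and 12 lower at day 6, with a median of -0.38. Without the 2 DMSO arrays 0 were higher and 3 lower at day 3, and PDIA6 (-0.34) and SIL1 (0.32) were not called (limma adjusted p = 0.12 and 0.14). MANF, a secreted ER stress protein, fell by 0.35 ± 0.08 at day 3 and by 1.15 ± 0.08 at day 6. DNAJB11 fell by 0.31 ± 0.06 and the disulfide isomerase PDIA6 by 0.29 ± 0.09 at day 3, when SIL1, an exchange factor of BiP, was higher by 0.28 ± 0.09. At day 6 SDF2L1 fell by 0.86 ± 0.12 and PDIA6 by 0.78 ± 0.09, while DNAJB9, a J-domain partner of BiP, rose by 0.77 ± 0.12.

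The 22 amino acid response genes included 0 higher and 15 lower at day 3, with a median of -0.79, and 0 higher and 9 lower at day 6, with a median of -0.43. The day 3 result rests on the DMSO arrays numbered 2 and 3, which stand apart in these genes. Without them 0 were higher and 2 lower, with a median of -0.12. Between days 3 and 1 of the DMSO arm 4 of the 22 were called higher, with a median of 0.58, and between the same days of the EZH2i arm 2 were called lower, with a median of -0.12. Between days 6 and 1 the DMSO arm had a median of 0.27, with 19 of the 22 above 0 and 0 called. In the EZH2i arm 0 were called higher and 4 lower between these days, with a median of -0.17. Over all genes 16.9% were higher and 24% lower there. At day 3, with all arrays, CHAC1 differed by -1.88 ± 0.51, the asparagine synthetase ASNS by -1.58 ± 0.30, ATF5 by -1.51 ± 0.30 and SESN2 by -1.5 ± 0.36, and all 4 were called. Without the 2 arrays none of them was called, with differences of 0.31, -0.37, -0.33 and -0.07 (limma adjusted p = 0.52, 0.26, 0.34 and 0.92). At day 6 SHMT2 and PSAT1, enzymes of serine and glycine metabolism, fell by 1.24 ± 0.14 and 1.21 ± 0.26, ASNS by 1.17 ± 0.30 and ATF4 itself by 0.90 ± 0.22.

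Of 16 measured genes of MYC and ribosome biogenesis, 0 were higher and 9 lower at day 3, and 0 higher and 15 lower at day 6, with medians of -0.29 and -0.72. Without the 2 DMSO arrays 7 were lower at day 3, with a median of -0.38, and the 4 genes named for that day were among them. LYAR, MRTO4, CAD and RRP12 fell by 0.62 ± 0.08, 0.60 ± 0.10, 0.54 ± 0.09 and 0.49 ± 0.07 at day 3. At day 6 CAD, which begins pyrimidine synthesis, fell by 1.40 ± 0.09, LYAR by 1.32 ± 0.08, the rRNA methyltransferase FBL by 1.15 ± 0.07 and MRTO4 by 1.14 ± 0.10. MYC differed by -0.10 ± 0.12 at day 3 and fell by 0.73 ± 0.12 at day 6 (limma adjusted p = 5e-05), and was also chosen after its values were seen. These values stand beside those of the chaperone genes from the same arrays, and the relation between the lists was not tested.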

How the data were processed

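Total RNA of KARPAS-422 cells was hybridised to 24 Affymetrix U133 Plus 2 arrays, 3 in each of 8 groups. The authors deposited log2 values of 54613 probe sets and per the submitters' processing notes used RMA and R 2.10.1; no source here names the log base. The values run from 1.72 to 14.33, the range RMA gives in log2, with array medians of 4.958 to 5.032. RMA shrinks differences of dim genes and gives no detection calls, and the number of arrays limits the precision. Probe sets were named from the platform's table: 41091 have 1 symbol, 1801 several (left out) and 11721 no gene named here, and Entrez IDs gave the current symbol for 41037. For each of 19775 genes the single-symbol probe set with the highest mean was used.

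Differences were tested with limma 3.58.1 in R 4.3.3 (1 coefficient per group, eBayes defaults, 16 residual and 5.22 prior degrees of freedom, 2-sided p with Benjamini-Hochberg adjustment across genes, tested on simulated data), since an exact test of 3 against 3 arrays cannot go below 0.1. Contrasts were EZH2i minus DMSO at each day, day 6 minus day 1 of that effect, and later days minus day 1 within each arm. Alternatives covered probe set choice, replicate block, groups in the fit, array weights, eBayes settings, scaling, dim genes, left-out arrays and the threshold. The genes and lists were chosen with earlier results of these data known. Differences are given for every listed chaperone gene called at any day. Values by array are given for up to 3 called genes of each role group with the largest difference and for the one with the smallest, and up to 4 called genes are named from each other list at days 3 and 6.

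Equal replicate numbers were checked from the correlation of deviations from the group means, leaving out the dimmest 40% of genes. The median correlation between groups was 0.37 for equal and -0.19 for different numbers, and 21 of the 24 arrays correlated best with their own number. EZH2i and DMSO arrays of 1 number correlated at 0.31 to 0.75 at days 1, 3 and 6. At day 2 numbers 1 and 3 correlated at 0.55 and 0.62 but number 2 at 0.08, so the pairing of number 2 at that day is uncertain. Values with the replicate block are given beside the result where they change a call in EZH2i against DMSO, and otherwise in the closing section.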

Additional observations from a re-analysis of the deposited data

Results flagged for a closer look

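The effect of EZH2i at day 6 differed from that at day 1 for 22 of the 30 chaperone genes by limma's test of the difference itself, 21 toward lower and 1 toward higher values, against 14.4% and 12.3% of all genes. In the HSP70 machine the differences between the effects were -1.16 for HSPA14, -0.59 for HSPA4, -0.48 for HSPH1, -0.43 for DNAJA1 and -0.35 for ST13. In the HSP90 machine they were -1.17 for STIP1, -0.99 for FKBP4, -0.75 for HSP90AB1 and -0.48 for PTGES3. The mitochondrial genes gave -1.45 for TRAP1, -0.99 for HSPE1, -0.87 for HSPA9 and -0.75 for HSPD1. For the TRiC subunits the values were -0.94 (CCT5), -0.84 (CCT6A), -0.75 (CCT2), -0.68 (CCT7), -0.63 (CCT4), -0.55 (CCT8) and -0.52 (CCT3). PFDN2 gave -0.49 and PFDN5 0.45.

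The call of PFDN5 for this difference (limma adjusted p = 0.03) was lost without DMSO day 1 replicate 1 or 3, EZH2i day 1 replicate 2, DMSO day 6 replicate 1, or EZH2i day 6 replicate 2 or 3. With the mean of probe sets, HSPH1 (-0.51), DNAJA1 (-0.23) and CCT8 (-0.33) were no longer called (limma adjusted p = 0.069, 0.11 and 0.082), and ST13 changed sign. In the same setting CHORDC1 (-0.66), FKBP5 (-0.40) and HSP90AA1 (-0.31) were gained (limma adjusted p = 7.7e-05, 0.0036 and 0.014). The count of lower genes was 20 there, against 21. With the replicate number as a block, CHORDC1, PFDN4 and BAG3 were called as well, and with the block within each day DNAJB1 too (-0.44, limma adjusted p = 0.043).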

How the results depend on the processing

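Of 27 calls at day 6, 22 remained in every alternative tried at the threshold of 0.05, the others being CHORDC1, FKBP5, HSP90AA1, PFDN4 and ST13. At day 3 this held for 2 of 13, and for the difference between the effects at days 6 and 1 for 14 of 22. With the mean of probe sets ST13 changed sign, to 0.0495 at day 6 and 0.10 for the difference between days (limma adjusted p = 0.53 and 0.46). The arrays' number and brightness limit the precision.

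With the replicate block, genes called numbered 2 lower at day 2 (HSPA14 and HSPA9), 2 higher and 17 lower at day 3, 2 higher for the difference between days, and 1 for DMSO at day 6 (HSP90AA1), and HSPH1, PTGES3 and STIP1 were gained in the EZH2i arm at day 3, and no other count changed by over 1.5 times. The block within each day gave 1 higher at day 1 (BAG3), 2 lower at day 2 (HSPA14 and HSPA4), 3 higher at day 3 (BAG3, SERPINH1 and PFDN5) and 2 higher for the difference. Array weights gave 1 lower at day 2, and trend with robust eBayes 1 in the DMSO arm at day 6. A fit of the compared groups alone gave 5 lower at day 3, 2 higher for the difference and 0 called in the EZH2i arm at day 2. At an adjusted p under 0.01 limma gave 0 higher for the difference and 0 in the EZH2i arm at day 2. The mean of probe sets gave 10 in the EZH2i arm at day 3.

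With all arrays numbered 1, 2 or 3 left out, 6, 1 and 5 genes were lower at day 3, and for each number 0 were higher for the difference and 0 called in the EZH2i arm at day 2. Without number 2, BAG3 was not called at day 2 (0 higher), and without numbers 2 and 3 the EZH2i arm had 3 and 8 at day 3. Leaving out each array in turn gave 6 to 14 lower at day 3, 21 to 26 lower at day 6, 21 to 22 lower and 0 to 1 higher for the difference, and 0 to 1, 11 to 16 and 26 to 28 called in the EZH2i arm at days 2, 3 and 6. The EZH2i arm had 0 at day 2 without EZH2i day 1 replicate 1 or EZH2i day 2 replicate 2 or 3. Setting the median gene to no change and leaving out both DMSO day 3 arrays were chosen after seeing the data. Where a count changed, the cause was not tested.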
